A study of Oreochromis niloticus and Pundamilia nyererei with 6 samples.

Results

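The liver transcriptome of *Pundamilia nyererei* (PN), a cichlid fish of Lake Victoria, is described here locus by locus in 3 fish. A locus is a stretch of one strand covered by transcripts whose spans overlap. Transcripts with a strand were joined in this way on each sequence of the PunNye1.0 genome, which gave 20142 loci of the 43534 found over both species of the series. The loci were measured in 3 of its 6 libraries. Liver RNA of the Nile tilapia *Oreochromis niloticus*, also from 3 males, makes up the rest of the series. The PN fish were males of generation 1, reared in tanks from Lake Victoria stock, and their age was not stated in the labels. Fresh liver was snap frozen, its total RNA was depleted of ribosomal RNA, and 1 stranded library per fish was sequenced as paired reads of 75 bp. Each fish is therefore known from 1 piece of tissue and 1 library, and a difference between fish cannot be told apart from a difference between dissections, extractions or libraries. The 3 fish are replicates of 1 group, so they were compared by value, with no test.

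The liver makes most proteins of the blood plasma, and it carries out much of the metabolism of lipids, sugars and amino acids. Messenger RNAs of a few secreted proteins, such as apolipoproteins and carriers of iron and lipid, are usually very abundant in this tissue in vertebrates. Depletion of ribosomal RNA, unlike selection of poly(A) tails, keeps noncoding RNAs and unspliced RNA in the library. The transcripts carry serial names (mRNA30554 and the like) without a gene symbol, and no annotation of PunNye1.0 was used here. For this reason no locus was given a gene name or role, and the label of the tissue was not checked against marker genes. A locus is named below by its leading transcript, the one with the highest mean level. In RNA from whole tissue, a lower level may stand for fewer cells of a type or for less RNA per cell, which cannot be told apart.

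Levels are given in FPKM, fragments per kilobase of transcript and Mio mapped fragments, summed over the transcripts of a locus. FPKM divides by transcript length, which makes levels of different loci roughly comparable. The sum over a locus still depends on the lengths of the transcripts to which fragments were assigned. Above 50 FPKM, the values were a fixed multiple of coverage within a library, without a further correction for short transcripts. The values correspond to 12.1, 11.3 and 13.0 Mio aligned read pairs in fish 1, 2 and 3. Their mean is above the average number of read pairs per sample in the labels, and the reason was not tested. Fragment numbers and floors given below rest on these totals. The loci held 81.9% ± 1.5 (SD, n = 3) of the FPKM of all listed transcripts, and transcripts without a strand, which held the rest, were left out. Of the 20142 loci, 13872 (68.9%) reached an FPKM of 1 in at least 1 fish and are called expressed. In 11097 of these every fish reached 1, in 1473 it was 2 fish, and in 1302 it was a single fish. The other 6270 loci stayed below 1 in every fish, and 14 of them were listed at 0 throughout. The threshold cuts a continuous distribution: the nearest loci on its inner and outer side had highest values of 1.00012 and 0.999902.

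Most expressed loci were low. The median level was 3.62, 4.26 and 4.03 FPKM in fish 1, 2 and 3, and the 90th percentile was 24.2, 27.4 and 26.05 FPKM. The number of loci at 1 FPKM or more was 12270, 12954 and 12315 in the same order, a mean of 12513 ± 383 (SD, n = 3). Fish 2 had the most detected loci and the highest median, with the fewest read pairs. By mean level, 9635 loci lay between 1 and 10 FPKM, 2653 between 10 and 100, 449 between 100 and 1000, and 106 at 1000 or more. A further 1029 expressed loci had a mean under 1.

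The transcriptome was carried by few loci. The 106 loci with a mean of at least 1000 FPKM, 0.764% of the expressed loci, held 56.0% ± 1.8 (SD, n = 3) of the FPKM of all loci. The 9635 loci between 1 and 10 FPKM held 6.33% ± 0.63. Ranked by mean level, the first 10 loci took 23.6%, 19.5% and 23.1% in fish 1, 2 and 3 (22.1% ± 2.2). The first 100 took 55.0% ± 1.8 and the first 1000 took 86.3% ± 1.2. When loci were ranked within each fish, 62, 76 and 78 loci made up 50% of the FPKM, and 1442, 2029 and 1776 loci made up 90%. Fish 1 needed the fewest loci for both shares.

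**Figure D1:**
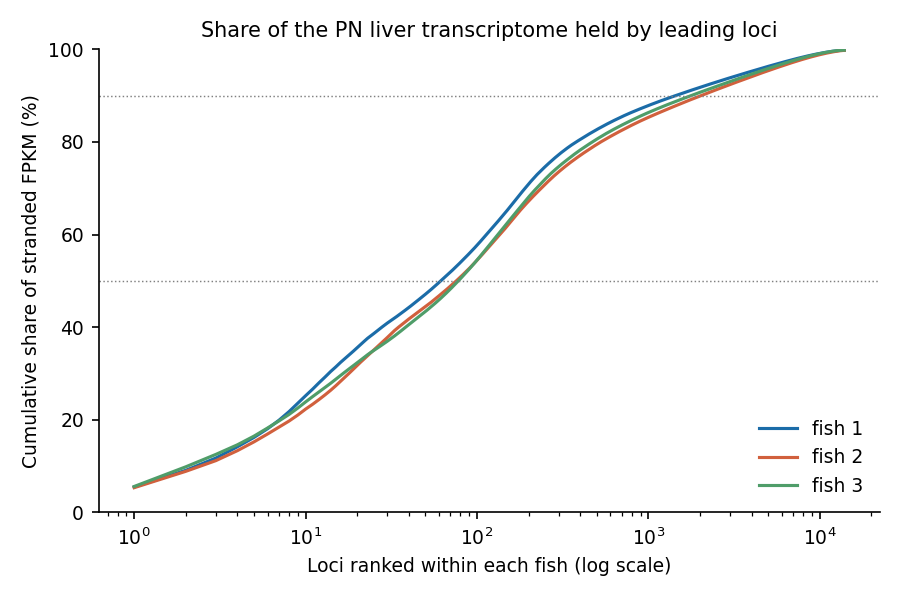
Cumulative share of the FPKM of all loci (y axis, percent) against the number of loci, ranked from the most abundant down within each fish (x axis, log scale). One line stands for each fish, and dotted lines mark 50%, crossed at 62, 76 and 78 loci, and 90%, crossed at 1442, 2029 and 1776 loci in fish 1, 2 and 3.

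The most abundant locus was mRNA30554, on the minus strand of NW_005187583.1 from base 123521 to 125642, with 2 transcripts of up to 4 exons. It stood at 32930, 20215 and 32371 FPKM in fish 1, 2 and 3, a share of 4.87% ± 1.16 (SD, n = 3). Fish 1 and 3 were close to each other, and fish 2 lay 1.63-fold below the highest. The locus mRNA27066, on the minus strand of NW_005187535.1 from 1388376 to 1504121, had 5 transcripts, the longest with 43 exons, and stood at 21637, 30594 and 24506 FPKM. Here fish 2 was the highest, so that by its sum the locus mRNA27066 and not mRNA30554 led the list in that fish. As single transcripts, mRNA30554 stood higher in fish 2, at 19339 FPKM against 11994 for mRNA27066. In the locus mRNA27066, the transcripts mRNA2233, mRNA2234 and mRNA27066 do not overlap one another and are joined through mRNA2236. The short transcript mRNA2233 (2 exons, 255 bases) contributed 5245, 7773 and 5844 FPKM to this locus. Its leading transcript mRNA27066 (25 exons, 2793 bases) contributed 7570, 11994 and 9224 FPKM. The third locus, mRNA19040, a transcript of 4 exons and 634 bases on the minus strand of NW_005187468.1 from 2698897 to 2700106, stood at 16007, 12273 and 15533 FPKM.

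Of the 20 most abundant loci, 4 shared 1 pattern, with fish 2 lowest and fish 1 highest by about the same fold. The locus mRNA30824 (NW_005187587.1, 319860 to 322967, plus strand, 9 exons) stood at 14521, 5698 and 11912 FPKM, a 2.55-fold difference. The locus mRNA36741 (NW_005187716.1, 133534 to 135237, plus strand, 5 exons) stood at 9743, 3813 and 7976 FPKM, again 2.56-fold. The other two, mRNA41841 (39895 to 46248, plus strand, 12 exons) and mRNA41843 (52127 to 59895, minus strand, up to 8 exons), lay on the same sequence, NW_005188038.1. They were at 12144, 4870 and 10824 FPKM and at 10914, 4386 and 7995 FPKM, folds of 2.49 and 2.49. The locus between them, mRNA41842 (46677 to 50465, minus strand), was low, at 25.8, 38.2 and 33.7 FPKM, and had fish 2 as the highest. The set of 4 was picked after the values had been seen.

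Other abundant loci were low in fish 3. The locus mRNA4267 (NW_005187405.1, 5631154 to 5638416, plus strand, 17 exons) stood at 11096, 13280 and 4358 FPKM, with fish 3 lower than the highest by 3.05-fold. For mRNA26771 (NW_005187532.1, 1627453 to 1630177, minus strand, 4 exons) the values were 11256, 7366 and 2083 FPKM, a 5.40-fold difference. The widest gap among the 20 was that of mRNA7012 (NW_005187412.1, 5309450 to 5310421, minus strand, 3 exons), at 8642, 7477 and 503 FPKM, a 17.2-fold difference. In each of these 3 loci, fish 1 and 2 were closer to each other than either was to fish 3. The order of mRNA19042 (NW_005187468.1, 2703556 to 2705794, minus strand, 5 exons) was another one, with 4082, 9737 and 1382 FPKM, fish 2 highest and fish 3 lowest by 7.05-fold.

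The locus mRNA816, at 11027, 3189 and 4704 FPKM and 3.46-fold apart, is taken up with its neighbours and its transcripts. The remaining abundant loci varied less. A pair of them were short single exons, mRNA17245 (NW_005187459.1, 1353263 to 1353513, 251 bases) at 5972, 5530 and 5885 FPKM, and mRNA20288 (NW_005187477.1, 70176 to 70480, 305 bases) at 4536, 4843 and 5568 FPKM. The value of mRNA17245 differed by 1.08-fold between the highest and the lowest fish, the smallest fold among the 20. A locus of 6 exons, mRNA33331 (NW_005187632.1, 227394 to 228944, plus strand), was nearly as even, at 5924, 5595 and 5078 FPKM. Folds of 1.23 to 1.70 separated the highest and lowest fish in mRNA516, mRNA7542, mRNA15433, mRNA20288, mRNA38317 and mRNA45898. Most of mRNA15433 (NW_005187449.1, 637070 to 643121) came from a single-exon transcript of 222 bases, at 4119, 6615 and 6759 FPKM, and its spliced transcript mRNA15432 (7 exons) was at 961, 817 and 913 FPKM. The locus mRNA45898 (NW_005194320.1, 108 to 1067) was made of a pair of 431-base transcripts, at 3848, 3461 and 2877 FPKM and at 3198, 5019 and 3835 FPKM.

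**Figure D2:**
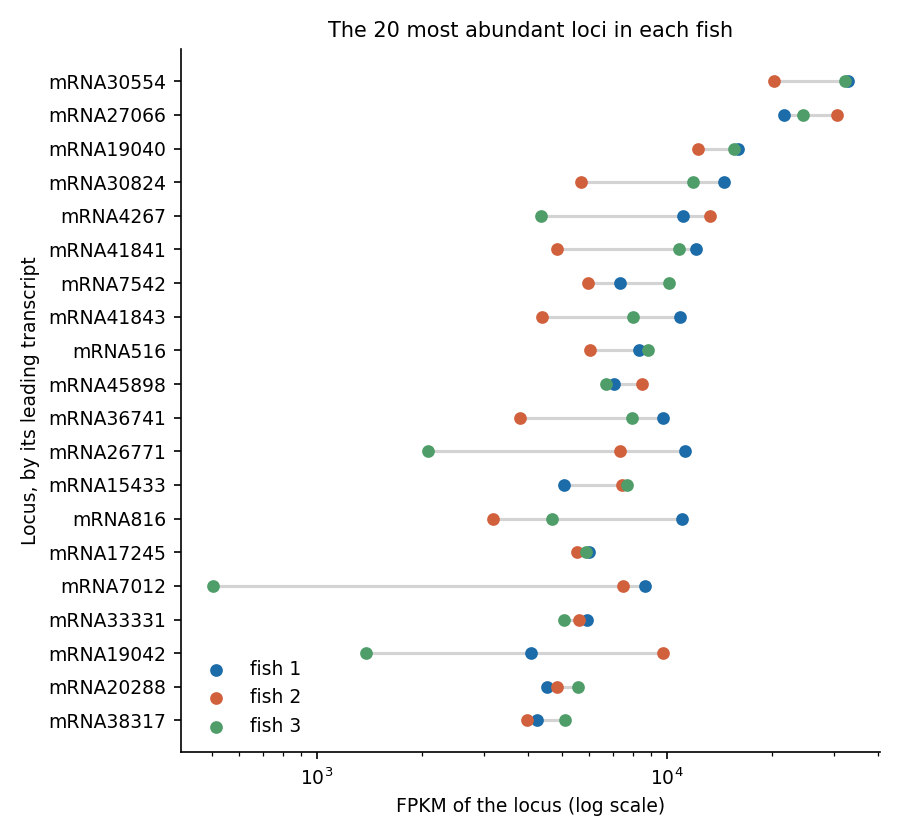
FPKM of the 20 most abundant loci (x axis, log scale), 1 point per fish, with loci named by their leading transcript and ordered by mean level from the top. The points of mRNA17245 lie within 1.08-fold of each other, those of mRNA7012 spread over 17.2-fold, and fish 2 is leftmost in mRNA30824, mRNA41841, mRNA41843 and mRNA36741.

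The 20142 loci lay on 1643 sequences, of which 1368 carried an expressed locus. Of the 1643 sequences, 1052 carried 1 or 2 loci and 115 carried 50 or more, up to 327. The sequences with at least 50 loci held 8323 expressed loci (60.0%) and 59.3% ± 2.3 (SD, n = 3) of the FPKM. Those with 1 or 2 loci held 897 expressed loci (6.47%) and 7.0% ± 0.39 of the FPKM. In both classes the share of FPKM was close to the share of expressed loci. The 10 leading sequences together held 29.9% of the FPKM. The first was NW_005187468.1, with 105 loci and 5.29% ± 0.76 of the FPKM, and 4 of its loci had a mean above 1000 FPKM. On NW_005187583.1 nearly everything came from mRNA30554, which made up 99.8% of a share of 4.88% ± 1.16. The sequence NW_005188038.1 held 2.91% ± 1.15 with 4 loci, mRNA41841 and mRNA41843 among them. Its share ran from 1.62% in fish 2 to 3.84% in fish 1.

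On NW_005187468.1, abundant loci followed one another at short distances on the minus strand, and they did not all vary together. In the order of the sequence, mRNA19038 (2685739 to 2687258) stood at 1047, 524 and 578 FPKM in fish 1, 2 and 3. Next came mRNA816 (2689355 to 2693065), then mRNA19040, then mRNA19042. The first 3 had fish 1 highest and fish 2 lowest, and in mRNA19042, 3449 bases beyond mRNA19040, fish 2 was highest. Past it the level dropped, with mRNA19043 (2709673 to 2711044) at 20.5, 14.1 and 7.98 FPKM. The loci mRNA19038 and mRNA19043 were looked up after the values of their neighbours had been seen.

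Differences between fish were measured as the range of log2(FPKM + 1) over the 3 fish, so that a range of 1 stands for 2-fold in loci well above 1 FPKM, and for more than 2-fold in low ones. The median range over the 13872 expressed loci was 0.48, a fold of 1.40 in FPKM + 1 and of more in FPKM itself. A range of at least 1 was found in 2261 loci (16.3%), a range of at least 2 in 462 and of at least 5 in 28. Such a range needs an FPKM of at least 1 in the highest fish, so each of these loci counts as expressed by construction. Where every fish reached 1 FPKM, the share with a range of at least 1 was lower, 1150 of 11097 (10.4%). The loci with a range of at least 1, called differing below, held 24.97% of the FPKM. The cut is again within a continuum, with 1.00006 just inside (mean 10.7 FPKM) and 0.999972 just outside (mean 50.7 FPKM). Estimated fragments, which are coverage times length over 150 bases, gave the counting error. In 2028 of the 2261 loci (89.7%) the log2 ratio of the highest to the lowest fragment number exceeded 2 counting SD. Fragment numbers were not scaled to the read pairs of each fish, and those under 3 were set to 3. These loci were picked for a large range over the 3 fish, which by itself raises the share. The median fragment number in differing loci was 109 in the highest and 19.2 in the lowest fish. Counting error covers the sampling of fragments only. Among the 3208 loci with a mean of at least 10 FPKM, 548 (17.1%) differed. Over pairs of fish, the number of differing loci was 891 without fish 1, 1299 without fish 2 and 1440 without fish 3.

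**Figure D3:**
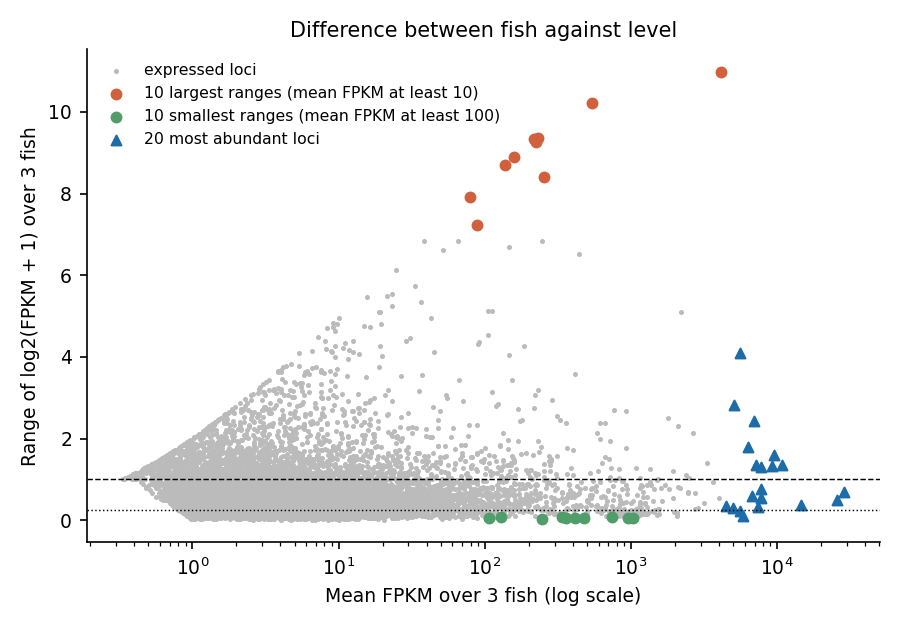
Range of log2(FPKM + 1) over the 3 fish (y axis) against mean FPKM (x axis, log scale) for the 13872 expressed loci (grey). Coloured points mark the 10 largest ranges (orange), the 10 smallest ranges at a mean of at least 100 FPKM (green) and the 20 most abundant loci (blue triangles), and lines mark a range of 1 (dashed, reached by 2261 loci) and of 0.25 (dotted).

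The fish took unequal parts in these differences. Fish 2 exceeded fish 1 by a log2 difference of at least 1 in 971 loci (7% of 13872), and fish 1 exceeded fish 2 in 469 (3.38%). Fish 3 was above fish 1 in 665 (4.79%) and below it in 634 (4.57%). Fish 2 was above fish 3 in 658 (4.74%), and fish 3 above fish 2 in 233 (1.68%). Part of this follows the whole distribution, since the median log2 difference over all expressed loci was 0.16 for fish 2 over fish 1, 0.12 for fish 3 over fish 1 and -0.04 for fish 3 over fish 2. With the libraries scaled to the same 75th percentile, which brought these medians close to 0, the counts became 720 against 626 for fish 2 and 1, 551 against 802 for fish 3 and 1, and 263 against 577 for fish 3 and 2. The share of calls with fish 2 above fish 1 thus went from 67.4% to 53.5%, and that with fish 3 above fish 1 from 51.2% to 40.7%, which turned the direction of the latter. Fish 3 stayed below fish 2 in most calls. Of the 2261 differing loci, 1983 (87.7%) also differed after this scaling.

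In the abundant loci fish 2 was mostly the lowest. Over all expressed loci, fish 1 was the lowest in 6939 (50.02%) and fish 2 in 2974 (21.4%). Among the 106 loci of at least 1000 FPKM, fish 2 was the lowest in 69 (65.1%) and fish 1 in 20. After scaling to the 75th percentile fish 2 was the lowest in 76 of 107 such loci, and after scaling by median of ratios in 72 of 106. Fish 2 had the highest 75th percentile (9.75 FPKM, against 8.41 and 9.32 in fish 1 and 3). Scaling to it therefore lowered fish 2 against both other fish, and so did scaling by median of ratios. Neither scaling could raise fish 2, so these counts are no check of the pattern. Over all expressed loci, fish 1 was then the lowest in 34.9% and fish 2 in 32.9% at the 75th percentile. By median of ratios the shares were 35.5% and 30.3%. Both scalings bring the centres of the fish together, which by itself evens out these shares, so they are no contrast to the abundant loci. The 4 loci with fish 2 low by about 2.5-fold are among the abundant ones. What set the abundant loci apart in fish 2 was not tested.

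The share of differing loci varied with level and with the shape of the locus. It was 31.5% in loci with a mean under 1 FPKM, 14.4% from 1 to 10, 15.4% from 10 to 100, 26.3% from 100 to 1000 and 20.8% at 1000 or more (22 of 106). It was therefore lowest from 1 to 100 FPKM, beside 16.3% over all expressed loci. The 1 added to FPKM narrows the range most in low loci, which by itself lowers the share under 10 FPKM. The shares of low and high classes are thus not on an equal footing. Loci with a mean under 1 entered only through a fish at 1 or more, which by itself raises their share. Single-exon loci differed in 28.9% of 1128, loci of 2 or 3 exons in 28.3% of 2294, of 4 to 9 exons in 14.4% of 5146, of 10 to 19 exons in 10.7% of 3828 and of 20 or more exons in 9.08% of 1476. The share was thus smaller in the classes with many exons. The order was the same, but for the first pair of classes, at a mean of at least 10 FPKM, where the shares were 22.9%, 29.3%, 16.5%, 12.9% and 11.4% in the same order of classes. Loci with more exons also had more estimated fragments, a median of 25.9 in single-exon loci and 262 in those of 20 or more exons.

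Place on the assembly went along with the same measure. On sequences with 1 or 2 loci, 37.0% of the 897 expressed loci differed, against 25.4% with 3 to 9 loci, 15.4% with 10 to 49 and 13.6% with 50 or more. At a mean of at least 10 FPKM these shares were 33.9%, 18.6%, 16.3% and 15.3%. The share was therefore highest on the sequences with the fewest loci at both settings. Of 83 expressed loci that began at the first base of their sequence, and so may be cut off there, 43.4% differed, against 16.1% of the others. By number of transcripts joined into a locus the share was 17.5% for 1 transcript, 13.8% for 2 and 15.8% for 3 or more, and at a mean of at least 10 FPKM it was 16.6%, 17.0% and 18.8%, so it had no single direction. These classes overlap, and the part of each in the others was not tested.

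The largest range of all named loci, 10.98, was that of mRNA8370, a locus of 3 exons and 327 bases on the plus strand of NW_005187417.1 from 2799461 to 2800043. It stood at 1416, 10882 and 4.37 FPKM, a 2490-fold difference between fish 2 and fish 3, where it was close to the median level of expressed loci (4.03 FPKM). The estimated fragments were 5607, 40133 and 18.5. The second largest range, 10.21, belonged to mRNA24583 (NW_005187510.1, 2238755 to 2239063, minus strand, 2 exons, 174 bases), at 8.94, 1612 and 0.358 FPKM. Its value in fish 3 came from 0.81 estimated fragments, under the 3 fragments (1.33 FPKM) that a value of 0 would allow, so the size of this range is uncertain. Fish 2 was highest and fish 3 lowest in both mRNA8370 and mRNA24583. The same order was found in mRNA26527 (NW_005187530.1, 8570 to 9364, 3 exons), at 112, 647 and 0.923 FPKM, a 701-fold difference, and in mRNA45950 (NW_005194562.1, 1 to 968, 2 exons), at 43.0, 652 and 0 FPKM. The level of mRNA45950 was at least 2480-fold higher in fish 2 than in fish 3, where a value of 0 allows up to 3 fragments, taken at the length of the leading transcript. Overlapping mRNA45950 on the other strand, mRNA45949 (1 to 367) was seen in fish 2 alone, at 0, 415 and 0 FPKM.

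Of the 10 largest ranges, 3 came from loci high in fish 3 alone. The locus mRNA43646 (NW_005188881.1, 1 to 9061, plus strand, 3 exons) stood at 0.109, 0.182 and 675 FPKM, with 11.6, 18.2 and 37948 estimated fragments. The locus mRNA33660 (NW_005187638.1, 168916 to 235901, plus strand, 3 transcripts) stood at 0, 0.329 and 650 FPKM, and mRNA41394 (NW_005187977.1, 145658 to 150317, plus strand, 2 transcripts) at 0, 0 and 476 FPKM. The value of mRNA33660 in fish 2 came from 2.66 estimated fragments, also under the floor. With the same floor of 3 fragments per library, mRNA41394 was at least 1408-fold higher in fish 3 than in the other fish. The last of the 10 were mRNA28562 (NW_005187554.1, 691313 to 691681, minus strand), seen in fish 1 alone at 239 FPKM, and mRNA45016 (NW_005190910.1, 2191 to 2848, plus strand), at 149, 116 and 0 FPKM. All 10 had at most 4 exons, and 3 of them began at the first base of their sequence. Of these 3, mRNA45950 and mRNA45949 overlap on 1 sequence. Among the 3208 loci with a mean of at least 10 FPKM, 105 (3.27%) had 1 exon and 468 (14.6%) had 2 or 3. Those of exactly 4 exons were not counted apart, and 37 (1.15%) began at the first base. The highest value of the 10 loci was in fish 2 in 5, in fish 3 in 3 and in fish 1 in 2.

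Each fish had loci in which it stood apart from both others at a mean of at least 10 FPKM. Fish 1 exceeded the higher of the others by most in mRNA28562, in mRNA45383 (114, 0 and 0 FPKM) and in mRNA12933 (46.6, 0.0730 and 0.393 FPKM). It lay below them by most in mRNA42839 (0, 98.1 and 56.8 FPKM), mRNA30400 and mRNA13117 (0, 36.8 and 33.4 FPKM). Of these, mRNA30400 (NW_005187581.1, 33661 to 50932, minus strand) was a long locus of 23 exons, at 0.174, 132 and 63.7 FPKM with 7.85, 5538 and 3063 estimated fragments. Fish 2 stood out upwards in mRNA45949, mRNA24583 and mRNA11725 (5.26, 716 and 20.9 FPKM). Downwards its gaps were smaller, with 229, 20.4 and 212 FPKM in mRNA23017, 4.86, 0 and 69.3 FPKM in mRNA15735 and 28.2, 7.35 and 34.1 FPKM in mRNA45392. For fish 3 the loci were mRNA43646, mRNA33660 and mRNA41394 above, and mRNA8370, mRNA45016 and mRNA26527 below. The downward gaps of fish 2, on the log2 scale, were 3.31, 2.55 and 1.81, and those of fish 3 were 8.04, 6.87 and 5.87.

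In 407 of the 2261 differing loci at least 1 fish was listed at 0. Most of these were low in the other fish too: 32 reached 10 FPKM elsewhere and 7 reached 100. A value of 0 allows up to 3 fragments, which for mRNA45950 corresponds to 0.263 FPKM in fish 3. The highest levels beside a 0 were those of mRNA45950, mRNA33660 and mRNA41394.

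Steady loci were defined as those with a mean of at least 10 FPKM and a range of at most 0.25, which is 1.19-fold in FPKM + 1. There were 643 of 3208 (20%), and they held 17.8% of the FPKM. Over pairs of fish there were 1626 without fish 1, 1338 without fish 2 and 1284 without fish 3. Of the 106 loci at 1000 FPKM or more, 32 (30.2%) had a range this small, against 18.7% from 100 to 1000 and 19.9% from 10 to 100. This share was the highest of the 3 classes, while the share of differing loci among the 106 (20.8%) was also above that over all expressed loci. The smallest range at a mean of at least 100 FPKM was that of mRNA24784 (NW_005187512.1, 1044035 to 1048387, minus strand, 6 exons), at 244, 251 and 243 FPKM. Its range of 0.04 was near its counting SD of 0.03 on the log2 scale. The next was mRNA45537 (NW_005192762.1, 1 to 424, plus strand, 2 exons), at 362, 355 and 367 FPKM, although it begins at the first base of its sequence. The loci mRNA2815 (8 exons; 1024, 1022 and 1064 FPKM) and mRNA14115 (8 exons; 961, 927 and 965 FPKM) were the most abundant of the 10 steadiest, and the other 6 (mRNA40360, mRNA18386, mRNA9541, mRNA14806, mRNA29137 and mRNA23318) had ranges of 0.05 to 0.07. None of the 10 was a single exon. They were drawn from the 555 loci with a mean of at least 100 FPKM, whose share of single exons was not computed. In the wider set with a mean of at least 10 FPKM, single-exon loci were few, 105 (3.27%) of 3208.

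Where loci that lie next to each other on a sequence both differed, the highest fish was mostly the same in close pairs. Among 12504 pairs of adjacent expressed loci, both differed in 459. Where they overlapped on opposite strands, the same fish was highest in 36 of 45 pairs (80.0%, 95% Wilson interval 66.2 to 89.1%). With a gap of 1 to 1000 bases it was 78 of 103 (75.7%), and with a wider gap of up to 10000 bases 98 of 147 (66.7%). Farther apart it was 67 of 135 (49.6%, 41.3 to 58.0%) up to 100000 bases and 12 of 29 (41.4%, 25.5 to 59.3%) beyond. The share was thus higher in close pairs, at 71.9% of 295 pairs up to 10000 bases (66.5 to 76.7%). Among all 2261 differing loci the highest was fish 1 in 30.6%, fish 2 in 45.9% and fish 3 in 23.5%. The share that unlinked loci would give was not computed. The intervals treat pairs as independent, though all pairs come from the same 3 libraries and a locus can belong to more than 1 pair. They describe a spread over pairs and not over fish, and are no test of close against far pairs. On the same strand the share was 69.5% of 190 close pairs, and on opposite strands 76.2% of 105. Whether some of these neighbours are pieces of 1 longer transcript was not tested. The comparison was made with each fish left out as well, with the higher of the other fish in place of the highest: close pairs shared it in 93.3%, 88.1% and 87.2% without fish 1, 2 and 3, and pairs over 10000 bases apart in 76.9%, 76.7% and 76.3%. These were 89, 134 and 148 close and 26, 60 and 80 far pairs, picked anew by the range over 2 fish. Intervals of close and far pairs overlapped each time (86.1 to 96.9% and 57.9 to 89.0% without fish 1). With 2 fish, a match is by itself more likely than with 3.

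**Figure D4:**
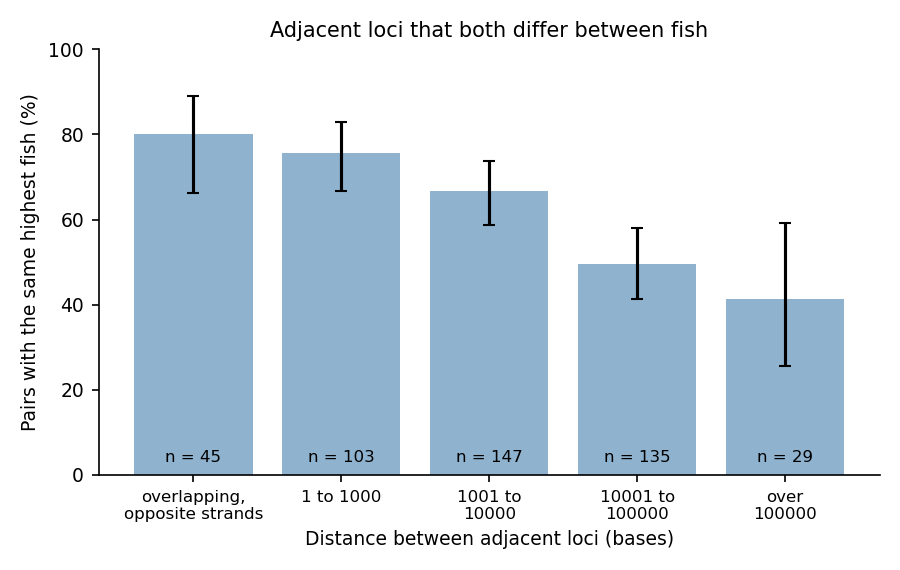
Percent of adjacent pairs of differing loci in which the same fish was highest (y axis), by the distance between the loci in bases (x axis), with n the number of pairs. Bars fall from 80.0% in overlapping pairs on opposite strands to 41.4% in pairs over 100000 bases apart, and error bars are 95% Wilson intervals over pairs.

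The same was looked at in abundant neighbours, whether they differed or not. Of 12 adjacent pairs within 20000 bases in which both loci had a mean of at least 300 FPKM, 5 shared the highest fish. The single-exon loci mRNA5886 and mRNA5887, 56 bases apart on opposite strands of NW_005187409.1, were at 853, 1381 and 1383 FPKM and at 1003, 1160 and 1320 FPKM. Both had fish 3 highest and fish 1 lowest. On NW_005187460.1, 885 bases separated mRNA17451, at 353, 499 and 607 FPKM, from mRNA17452, at 591, 453 and 542 FPKM, and the highest fish was not the same. These pairs were looked at after their values had been seen.

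Within a locus, fish also differed in which transcript led. Of 5237 expressed loci with several transcripts, 4624 reached 1 FPKM in every fish, and in 1554 of these (33.6%) the leading transcript was not the same in all fish. No margin and no counting error were asked for, so transcripts at low or nearly equal levels count as a change too. The locus mRNA45898, whose transcripts share start, end and length, is among them. The leading transcript held a median of 72.6% of its locus. At a mean of at least 100 FPKM the leading transcript changed in 35 of 211 loci (16.6%). The sum differed in 208 of the 1554 loci with a change of leader (13.4%) and in 313 of 3070 without one (10.2%), beside 1150 of 11097 (10.4%) over all loci with at least 1 FPKM in every fish.

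Among the abundant loci, mRNA816 showed this most plainly. Its transcript mRNA816 (8 exons, 1289 bases) stood at 10099, 2258 and 0 FPKM in fish 1, 2 and 3, and its transcript mRNA817 (7 exons, 2224 bases) at 928, 915 and 4689 FPKM. Fish 3 thus had all but a trace of this locus in the longer transcript, and fish 1 had most of it in the shorter one. FPKM divides by length, so fragments assigned to a short transcript add more to the sum than the same number assigned to a long one. By fragments per Mio pairs, the fold between the highest and lowest fish was 3.03 in place of 3.46. In the locus mRNA1582 (NW_005187496.1), a transcript of 891 bases stood at 1120, 1.92 and 1.80 FPKM and one of 3367 bases at 75.8, 271 and 294 FPKM, again with fish 1 in the short one. Its sum differed by 4.38-fold in FPKM and by 1.37-fold in fragments per Mio pairs, so most of the difference in the sum went with the length of the transcript. This locus was picked after its values had been seen.

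A pair of the 10 steadiest loci had a steady sum in FPKM and a changing make-up. By fragments per Mio pairs their folds were wider, 1.10 in place of 1.05 in mRNA9541 and 1.14 in place of 1.05 in mRNA29137. In mRNA9541 (NW_005187422.1, 2045245 to 2057785, minus strand) the sum was 104, 104 and 109 FPKM. Its transcript mRNA9541 (17 exons, 2249 bases) stood at 102, 26.4 and 101 FPKM and mRNA9540 (17 exons, 2564 bases) at 2.31, 77.4 and 8.38 FPKM. Fish 2 had most of the locus in the other transcript. In mRNA29137 (NW_005187562.1, 27948 to 40565, plus strand) the sum was 327, 342 and 344 FPKM, and fish 3 had 139 FPKM in mRNA29136 (5456 bases), which stood at 0.751 and 4.81 FPKM in fish 1 and 2. The transcript mRNA29137 (4548 bases) was at 326, 337 and 205 FPKM. The levels of overlapping transcripts are estimates, and reads across single exon junctions were not analysed here.

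**Figure D5:**
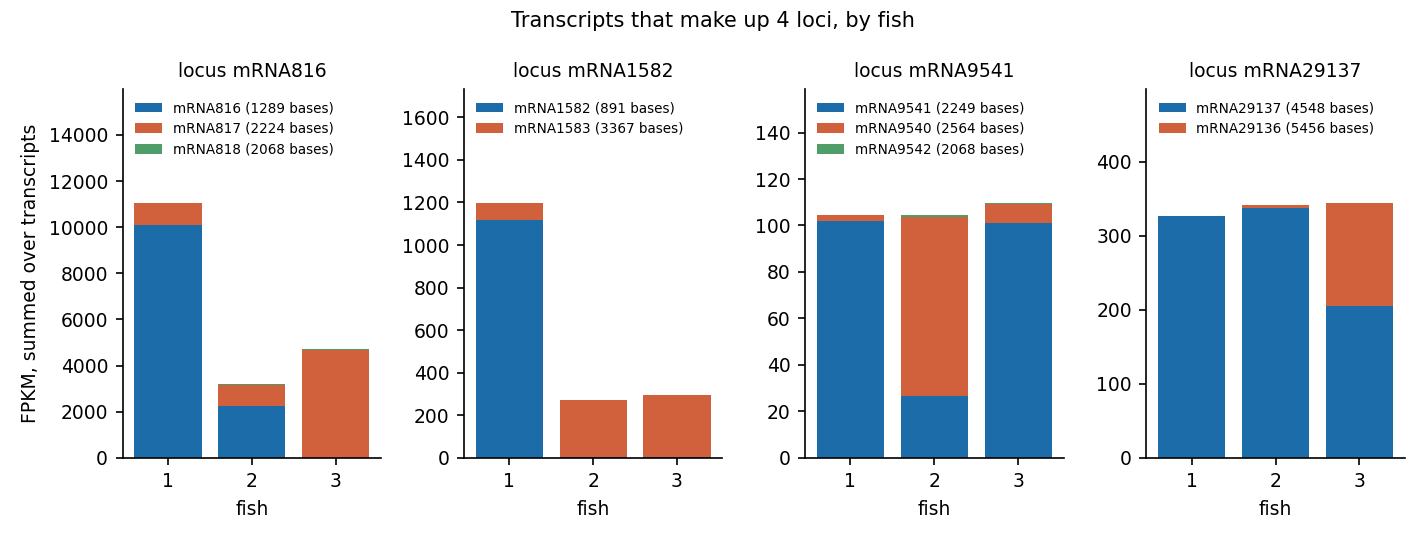
FPKM (y axis, linear, from 0) of 4 loci in fish 1, 2 and 3 (x axis), stacked by transcript, with transcript lengths in bases in the legends. In mRNA816 the leading transcript is the same in fish 1 and 2, which have the highest and the lowest sum, and another one leads in fish 3. In mRNA1582 the leading transcript of fish 1, which has the highest sum, is not that of fish 2 and 3. The sums of mRNA816 and mRNA1582 differ by 3.03-fold and 1.37-fold in fragments per Mio pairs. In mRNA9541 (104, 104 and 109 FPKM) and mRNA29137 (327, 342 and 344 FPKM) the sum in FPKM is steady and the make-up changes. In fragments per Mio pairs these sums differ by 1.10-fold and 1.14-fold.

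The loci with the most transcripts were not among the 20 most abundant. The locus mRNA6092 (NW_005187410.1, 1811309 to 1922355, plus strand), with 12 transcripts, stood at 2.06, 66.3 and 24.4 FPKM, 32.2-fold apart. Of its transcripts, 9 were highest in fish 2, 2 in fish 3 and 1 in fish 1, and the longest of them, of 3750 bases and 8 exons, stood at 0.222, 9.88 and 3.22 FPKM. The locus mRNA33251 (NW_005187630.1, 680347 to 727057, plus strand), also with 12, stood at 21.2, 19.5 and 20.2 FPKM. By fragments per Mio pairs it stood at 47.1, 67.7 and 53.3, 1.44-fold apart with fish 2 highest. Single exons of 71 bases, shorter than a read of 75 bp, made up 10 of its transcripts, each at most 7.22 FPKM. At this length 3 fragments correspond to 3.49, 3.75 and 3.26 FPKM in fish 1, 2 and 3, and most values of these exons were lower. The locus mRNA1116 (NW_005187479.1, 551312 to 590414, minus strand), with 10 transcripts, stood at 121, 89.5 and 108 FPKM.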

How the data were processed

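Liver RNA of 3 PN males was analysed from transcript tables, 1 per library. The authors aligned the reads with HISAT2 2.1.0 to PunNye1.0. StringTie is named beside it in the processing notes of the submitters. The tables are marked as those of the assembly with the reference annotation, 1 of several assemblies in the paper's methods. For it, per these methods, the replicates were merged into 1 transcript set, unexpressed and duplicated transcripts were removed, and similar transcripts of a locus were merged. The authors deposited for each transcript an FPKM and a per-base coverage. No read counts are among these columns, and count models were not applied. Each deposited coverage value was the same multiple of FPKM within a library (relative tolerance 0.0001 above an FPKM of 50), which gave the aligned bases and, over 150 bases, the read pairs (12.1, 11.3 and 13.0 Mio). The treatment of reads with several alignments in this total was not stated in the sources read.

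Of 45966 transcripts, 27832 with a strand were joined into 20142 loci, 14225 of them with 1 transcript, and 18134 without a strand were left out. The counting SD and the floor of 3 fragments come from estimated fragments and cover counting error only. Samples were grouped by their labels. Loci were named by rule: the 20 highest means, the 10 largest and 10 smallest ranges, the 3 loci furthest above and below the other fish in each fish, the 10 leading sequences, the 3 loci with most transcripts and the 3 highest beside a 0. Loci named outside it were chosen after their values were seen. Members, rules and lists were chosen with earlier results of these data known. Liver gene lists and cell type markers were to be used only with an annotation of PunNye1.0, and none was used here. Alternatives covered joining rules, FPKM minimums, pseudocounts of 0.1 and 10, scaling, transcripts in place of loci, gap sizes and leaving out each fish. Only the joining of spans and the range measure were tested on simulated data. The calculations used Python (3.11.15) and its packages pandas (2.3.3), numpy (2.4.6), scipy (1.17.1) and, for plots, matplotlib (3.10.9).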

Additional observations from a re-analysis of the deposited data

How the results depend on the processing

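The number of loci and of expressed loci stayed within 1.5 times of the value given under every alternative tried. The first 10 loci took 18.4% of the FPKM when single transcripts were ranked in place of loci and 18.1% with strandless transcripts in the denominator, against 22.1%. Without the 10 most abundant loci, the 10 leading sequences held 19.5%, against 29.9%. The count of differing loci (2261 of 13872, 16.3%) went to 3789 with a pseudocount of 0.1 and to 419 with a pseudocount of 10. In smaller sets of loci it was 1150 of 11097 (10.4%) at an FPKM of at least 1 in every fish. At a mean of at least 10 it was 548 of 3208 (17.1%), a share not below that over all expressed loci. The 5371 called as single transcripts are transcripts and not loci, so this count cannot be set against 2261. Leaving out each fish gave 891 to 1440 differing and 1284 to 1626 steady loci, a range over 2 fish being smaller by construction than one over 3. Steady loci (643) numbered 1108 with a pseudocount of 10. The share of close neighbours with the same highest fish (71.9%) was 65.3% at a mean of at least 10 FPKM and 87.2 to 93.3% with each fish left out, an alternative chosen after seeing the data, in which 2 fish remain. Of 50 alternatives, 31 left the value within its limits. This tally is no measure of robustness, since some outcomes were fixed in advance. Without a minimum FPKM, the count of differing loci is 2261 by construction, as a range of at least 1 needs an FPKM of at least 1. Estimated fragments in place of FPKM, also chosen after seeing the data, called 2424 loci, 1844 of them among the 2261 (81.6%).

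No paired analysis was possible because the 3 fish form 1 group and no result comes from a test. Depth limits the low loci most: differing loci had a median of 19.2 estimated fragments in the lowest fish. With 3 fish and 1 library each, the spread between libraries of 1 fish is unknown.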
